A study of Mus musculus with 12 samples.

Results

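The change in gene expression that 24 h of interferon-alpha brought about on average over 2 mouse fibroblast lines was measured on 12 Illumina bead arrays, which were all 12 arrays of the study. Interferon-alpha was given at 2500 U/ml. The members were chosen by treatment label alone: the response of the Rictor+/+ line (arrays 2, 6 and 10 with interferon against arrays 1, 5 and 9 without) and the response of the Rictor-/- line (arrays 4, 8 and 12 against arrays 3, 7 and 11) were averaged with equal weight, with the line kept in the model. Both lines are immortalized mouse embryonic fibroblasts (MEFs) grown in DMEM with 10% FBS and gentamycin. Each genotype is represented by a single line, so that the average covers these 2 lines and no wider set of cells. The labels also name Rictor siRNAs in a treatment note shared by all samples. That note is at odds with the knockout genotype field, which was followed here. Whether the 3 arrays of a group stand for independent cultures is not given in the labels, and p-values therefore measure only the spread between arrays, which may be technical.

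Interferon-alpha binds a receptor made of IFNAR1 and IFNAR2, and the attached kinases TYK2 and JAK1 phosphorylate STAT proteins, among them STAT2. With IRF9 these form the complex ISGF3, which binds interferon-stimulated response elements (ISREs) in the promoters of many genes, and a shorter palindrome, the gamma-activated site (GAS), is found in some of them as well. Rictor marks mTOR complex 2, which phosphorylates AKT, apart from complex 1. Interferon-raised genes are well described. Genes that fall, and genes that rise weakly, are harder to separate from array noise, and the average over 2 lines has a smaller error: the median standard error of a log2 change was 0.20 over both lines and 0.28 within a line.

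Of the 10 raised genes that led by the smaller of the lines' responses 8 have a promoter entry, and 6 of these held ISRE-type letters close to their start sites (Cmpk2 and Oasl2 did not). Promoters of 6 genes are shown from RefSeq (GRCm38.p6), as 60 bases around the first ISRE-type match, which was searched as GAAA, any 2 bases and GAAA again (on the other strand TTTC, any 2 bases and TTTC), with the matching letters and any overlapping match in capitals. Most weakly raised genes with a promoter entry held no match, as given below, and a promoter of Tcirg1, which did, is added. Each is written 5′ to 3′ on the strand of its gene.
Isg15, chr4:156200851-156200910, minus strand: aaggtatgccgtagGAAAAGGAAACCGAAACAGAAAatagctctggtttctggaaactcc
Bst2, chr8:71537563-71537622, minus strand: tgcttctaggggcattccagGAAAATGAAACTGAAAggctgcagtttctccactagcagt
Ifit3, chr19:34583381-34583440, plus strand: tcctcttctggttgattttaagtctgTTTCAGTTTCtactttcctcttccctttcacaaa
Gbp3, chr3:142559979-142560038, plus strand: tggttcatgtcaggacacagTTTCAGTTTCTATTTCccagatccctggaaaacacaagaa
Igtp, chr11:58199496-58199555, plus strand: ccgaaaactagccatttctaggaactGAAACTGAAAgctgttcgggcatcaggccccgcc
Irgm2, chr11:58214887-58214946, plus strand: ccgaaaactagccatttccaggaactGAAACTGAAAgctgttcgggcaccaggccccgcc
Tcirg1, chr19:3905396-3905455, minus strand: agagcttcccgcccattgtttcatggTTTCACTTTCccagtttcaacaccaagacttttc
Igtp and Irgm2 are neighbouring genes of the immunity-related GTPase family, and their windows shared 58 of 60 bases.

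Of 8277 named genes tested, 273 rose (3.3%) and 53 fell (0.64%) at an adjusted p under 0.05 in limma, adjusted by Benjamini-Hochberg over 17268 features. At an unadjusted p under 0.05 there were 529 higher and 648 lower. The rises were large, with a median log2 change of 1.68, and 70 of the 273 exceeded 8-fold. The decreases were small, with a median of -0.79, and 44 of the 53 stayed under 2-fold. All 53 decreases and 258 of the 273 rises had the same sign in both lines. Over all named genes 35% were below 0 and 24.2% above 0 in both lines. The called genes were picked by the mean of the lines, so nothing is read from these counts. The median over all named genes was -0.04.

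Within single lines, 3.53% of named genes rose and 0.507% fell in Rictor+/+ cells, and 1.29% rose and 0.0483% fell in Rictor-/- cells. These comparisons use the same arrays as the average, so that the overlap only describes what the larger comparison adds. Among the 273 rises, 102 were also called in both lines, 142 in the Rictor+/+ line only, 5 in the Rictor-/- line only and 24 in neither. Among the 53 decreases, 0 were called in both lines by limma (37 had an unadjusted p under 0.05 in both), 30 were called in the Rictor+/+ line only, 2 in the Rictor-/- line only (Fggy and Ptprz1) and 21 (39.6%) in neither. A call in 1 line alone does not show that the lines differ: the difference of the responses was itself called by limma for 55 of the 273 raised genes and for 0 of the 53 lowered genes (155 and 18 at an unadjusted p under 0.05). Over all named genes this difference was called higher in the Rictor-/- line for 0.0362% and lower for 0.664%.

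**Figure D1:**
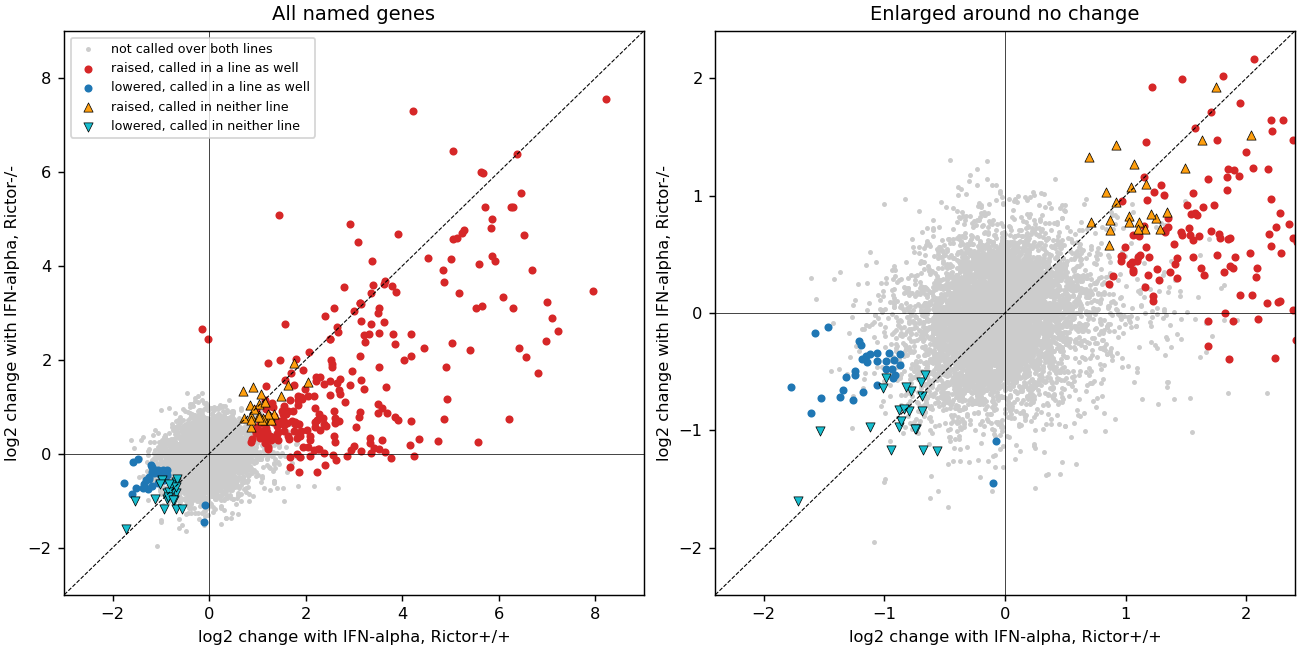
Log2 change with interferon-alpha in the Rictor+/+ line (x axis) against the Rictor-/- line (y axis) for the named genes, on the left over the main range and on the right enlarged. Red and blue points are genes called over both lines and in at least 1 line, triangles are genes called over both lines and in neither line, grey points were not called, and the dashed line marks equal change. The triangles (24 raised, 21 lowered) lie near the dashed line. They were picked by the same arrays as called for the mean and in neither line, which favours values alike in size, so nothing is read from it.

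The arrays fell into 2 sets by background: arrays 1 to 6 had a background mode of 210.7 to 240.3 intensity units and arrays 7 to 12 one of 107.6 to 127.9. No label names a batch, and each set holds all 4 groups with 3 treated and 3 untreated arrays. All 273 rises and all 53 decreases kept their sign in either set, but they were picked by the same arrays, so nothing is read from it. When the set entered the fit as a block, 268 of the 273 and 47 of the 53 were still called. Array 12, a treated Rictor-/- array, was the dimmest, with a total signal of 21292300 against 39160400 to 62338100 on the others. Values correlated at 0.955 to 0.990 between arrays of a group.

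The cells carried fibroblast transcripts, and few markers of other cell types could be tested. All 15 fibroblast markers were measured, among them Col1a1, Col1a2, Vim and Fn1, and 0 were called in limma (2 lower and 0 higher at an unadjusted p under 0.05, with 13 of 15 below 0). The summed linear intensity of these markers ranged from 87182 to 165988 on untreated and from 73109 to 134056 on treated arrays. Of 14 macrophage and dendritic markers 5 had a named probe and 2 passed the filter (Csf1r and Cd14, at a summed 248 to 976 on untreated and 211 to 1179 on treated arrays). Of 12 lymphocyte markers 2 had a named probe and 1 passed (Cd3e). Of 9 endothelial markers 3 had one and 2 passed (Kdr and Eng), and of 9 epithelial markers 0 were measured. Most markers of the first 3 of these cell types had no named probe, so that the few that passed say little about which cells were present. In bulk RNA, fewer cells of a type and less RNA per cell cannot be told apart.

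Rictor itself was measured close to background. Log2 intensities were 5.31, 6.58 and 6.89 in untreated and 5.87, 6.80 and 6.26 in treated Rictor+/+ cells, against 6.09, 6.65 and 6.80 in untreated and 6.17, 6.87 and 5.06 in treated Rictor-/- cells. The groups overlapped fully, and whether the probe lies in the deleted part is not given in the sources used here, so that it does not check the genotype labels.

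Of the pathway's own components, the receptor chain and kinases measured did not pass the test, while 6 transcription factors (Stat2, Irf9, Irf7, Irf1, Irf2 and Irf5) rose. The receptor chain Ifnar2 (0.02 ± 0.18, log2 change ± SE) and the kinases Jak1 (0.05 ± 0.28) and Tyk2 (-0.23 ± 0.24) were not called, with adjusted p of 0.785 to 0.983 in limma, and Tyk2 was below background on all 3 treated Rictor-/- arrays. Ifnar1 is not analysed here. Stat2 rose by 2.93 ± 0.23 (7.60-fold, adjusted p = 2.17e-06 in limma), from log2 intensities of 7.43, 7.83 and 8.38 to 11.58, 11.23 and 10.76 in Rictor+/+ cells and from 8.72, 8.21 and 8.09 to 11.19, 11.14 and 10.32 in Rictor-/- cells. Irf9, its DNA-binding partner, rose by 2.68 ± 0.23 with nearly the same value in the lines (2.66 and 2.70). Neither gene's treated arrays overlapped the untreated ones in either line. Irf7, the factor that amplifies interferon production, was below background on all 6 untreated arrays and rose at least 25.9-fold (adjusted p = 1.06e-08 in limma). It passed the filter on dim probes only through its treated arrays, so that its p is a description only. For a gene below background the fold is given as a bound, set against the lowest signal that counted as above background.

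Irf1, another interferon regulatory factor, rose by 0.86 ± 0.17, with 1.17 in Rictor+/+ cells and 0.56, not called, in Rictor-/- cells. Its intensity was already 13.77, 13.40 and 13.29 in untreated Rictor+/+ cells and 12.59, 12.11 and 11.69 in untreated Rictor-/- cells. Irf2, a regulator that binds the same elements, rose by 0.72 ± 0.14 (adjusted p = 0.00942 in limma), with 0.96 in Rictor+/+ cells and 0.49, not called, in Rictor-/- cells. Irf5 rose by 2.30 ± 0.38, with 3.21 in Rictor+/+ cells and 1.38, not called, in Rictor-/- cells. In the Rictor-/- line its arrays overlapped, with 1 of 3 untreated and 2 of 3 treated arrays above background. Socs1, a feedback inhibitor of the JAK kinases, was 2.69-fold higher on average with the untreated Rictor-/- group at the background limit. This is not a strict bound, since only 1 of 3 untreated Rictor+/+ arrays was above background. Socs1 was called in the Rictor+/+ line (2.61 on the log2 scale, adjusted p = 0.00268 in limma). In the Rictor-/- line it was not called (at least 1.19-fold higher, adjusted p = 0.809 in limma), with overlapping arrays, 0 of 3 untreated and 2 of 3 treated above background. In the list of 16 signalling and feedback genes measured, 8 rose and none fell. The Rictor+/+ line alone also gave 8 rises and the Rictor-/- line 4. Socs3, another suppressor of cytokine signalling (-0.06), Stat3 (0.18) and Irf3 (0.11) were among the 8 that were not called.

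The 10 genes that led by the smaller of the lines' responses included antiviral effectors and 3 interferon-induced GTPases (Gbp3, Igtp and Irgm2). Usp18, the protease that removes ISG15 from proteins and restrains the receptor, had the largest average change of all genes called: log2 intensities were 7.48, 6.50 and 6.61 in untreated and 15.29, 14.99 and 14.99 in treated Rictor+/+ cells, and 7.26, 5.80 and 5.996 in untreated and 14.10, 13.87 and 13.77 in treated Rictor-/- cells. The groups were far apart in both lines. The average rise was 7.90 ± 0.25 (238-fold, adjusted p = 6.64e-10 in limma). Only 2 of 3 untreated Rictor-/- arrays were above background, so that part of this fold rests on values near the background limit. Isg15, the ubiquitin-like modifier itself, rose from 10.84, 10.38 and 10.42 to 15.66, 15.47 and 15.69 in Rictor+/+ cells and from 7.64, 7.13 and 6.71 to 13.49, 13.90 and 13.42 in Rictor-/- cells. Its rise averaged 5.76 ± 0.18. Its level was lower in the Rictor-/- line with and without interferon. The difference of the responses was not called (adjusted p = 0.248 in limma).

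Other genes led by the smaller of the lines' responses were Ifit3, which binds viral RNA together with its partners (5.83 ± 0.20), the guanylate-binding protein Gbp3 (5.82 ± 0.26), the immunity-related GTPases Igtp (5.49 ± 0.35) and Irgm2 (5.03 ± 0.25), Oasl2, a relative of the oligoadenylate synthetases (5.76 ± 0.38), the nucleotide kinase Cmpk2 (5.44 ± 0.19), the ADP-ribosyltransferase Parp14 (5.32 ± 0.34) and Bst2, or tetherin, which holds budding virions at the membrane (4.87 ± 0.24). For all 10, limma's adjusted p was between 5.39e-10 and 3.71e-07 and the treated and untreated arrays did not overlap in either line. Such a rise without overlap was seen for 2.75% of all named genes. For Igtp, Oasl2 and Parp14, 2 of 3 untreated Rictor-/- arrays were above background. The 10 genes were picked by the same arrays, so their p and lack of overlap are a description only. Oasl2 showed the widest gap between lines among these, 4.22 in Rictor+/+ and 7.31 in Rictor-/- cells, and this difference was not called (adjusted p = 0.194 in limma). Rsad2, or viperin, rose at least 57.9-fold, from below background in untreated Rictor-/- cells. Trim30a, also below background there, rose 44.8-fold with that group at the background limit. The latter is not a strict bound, since only 1 of 3 untreated Rictor+/+ arrays was above background. In all, 37 of 39 antiviral effectors measured rose and none fell, with a median log2 change of 3.02, beside -0.04 over all named genes. The median was 2.19 without background correction and 2.17 with the deposited values. The lines did not respond alike throughout the list. Its median was 3.85 in the Rictor+/+ and 2.77 in the Rictor-/- line, with 34 and 28 rises called, and the difference of the responses was called for 13 of the 39. Most of these 13 rose more in the Rictor+/+ line, among them Mx1 (6.57 against 2.06 in the Rictor-/- line), Oas2 (7.11 against 2.90) and Sp100 (5.56 against 0.25). Ifitm3, Trim25 and Ifi27 rose more in the Rictor-/- line. Ifi27, a mitochondrial interferon-induced protein, changed by -0.14 in the Rictor+/+ and 2.65 in the Rictor-/- line. Apart from Ifitm3, these genes were named after their values were seen. A group lay below background for 13 of the 39, and the median takes those at their measured values. Within sets the median was 2.98 in arrays 1 to 6 and 3.04 in arrays 7 to 12. Probes of close relatives (the Oas, Ifi200, H2 and Gbp families) may share signal, which was not tested.

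Of 21 genes of antigen presentation by MHC class I measured 18 rose and none fell, with 17 rises in the Rictor+/+ and 12 in the Rictor-/- line alone and a median of 2.48 (2.10 in arrays 1 to 6 and 2.95 in arrays 7 to 12). Psme2, a subunit of the proteasome activator (0.68), the trimming peptidase Erap1 (0.99) and the chaperone Calr (0.02) were not called. The difference of the responses was called for Psmb9, H2-Q5 and H2-D1. The immunoproteasome subunits Psmb8 (5.04 ± 0.21) and Psmb9 (4.70 ± 0.20), which replace standard catalytic subunits, were among the largest. Untreated Psmb9 was above background on a single array per line. The peptide transporter gene Tap1 rose at least 9.37-fold and Nlrc5, the transactivator of class I genes, at least 7.66-fold, both from below background in both lines (2 of 3 treated Rictor-/- arrays were above it for Nlrc5). Both passed the filter on dim probes only through treated arrays. Of the 19 constitutive proteasome genes measured 0 were called in limma (1 higher and 0 lower at an unadjusted p under 0.05), and their median of 0.07 turned to -0.02 with median scaling in place of quantile normalization. The interferon-induced GTPases gave 9 rises of 10 measured, with a median of 4.25, which was 3.17 without background correction and 2.999 with the deposited values. The Rictor+/+ line alone gave 10 rises among them and the Rictor-/- line 7. Gvin1, a very large member, rose by 4.82 ± 0.27.

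Of 16 nucleic acid sensors and adaptors measured, 12 rose and none fell, with 11 rises in the Rictor+/+ and 8 in the Rictor-/- line alone. Dhx58, or LGP2, a regulator of RIG-I-like receptors, rose at least 25.4-fold, and the DNA-binding proteins Ifi211 and Ifi204 rose at least 7.36- and 8.67-fold. Their relative Ifi205 rose 27.8-fold with its dim group at the background limit. This is not a strict bound, since only 1 of 3 untreated Rictor+/+ arrays was above background. The adaptors Mavs (-0.19), Ticam1 (-0.29) and Sting1 (0.10) and the receptor Tlr4 (0.13) were not called. In the list of 14 chemokines and cytokines 8 rose, led by Cxcl10, a chemokine for T cells, at least 41.0-fold, and by Il15, which sustains natural killer cells, at 2.36 ± 0.18. The Rictor+/+ line alone gave 8 rises and the Rictor-/- line 3, with medians of 1.59 and 0.35. Il7 rose at least 2.83-fold. In the list of 13 genes of cell death and growth restraint 6 rose, among them Mlkl, the effector of necroptosis (2.87 ± 0.15), and Daxx, a nuclear body protein (2.19 ± 0.19). That list gave 6 rises in the Rictor+/+ line alone and 2 in the Rictor-/- line, with medians of 1.61 and -0.03. Over all named genes 3.3% rose on average, 3.53% in the Rictor+/+ and 1.29% in the Rictor-/- line. Of 10 ubiquitin-like conjugation genes, Uba7 (3.74 ± 0.36) and Ube2l6 (3.61 ± 0.20), the E1 and E2 enzymes for ISG15, rose, as did the deubiquitinase Usp25 (1.70 ± 0.27). The other 7 of that list were not called.

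**Figure D2:**
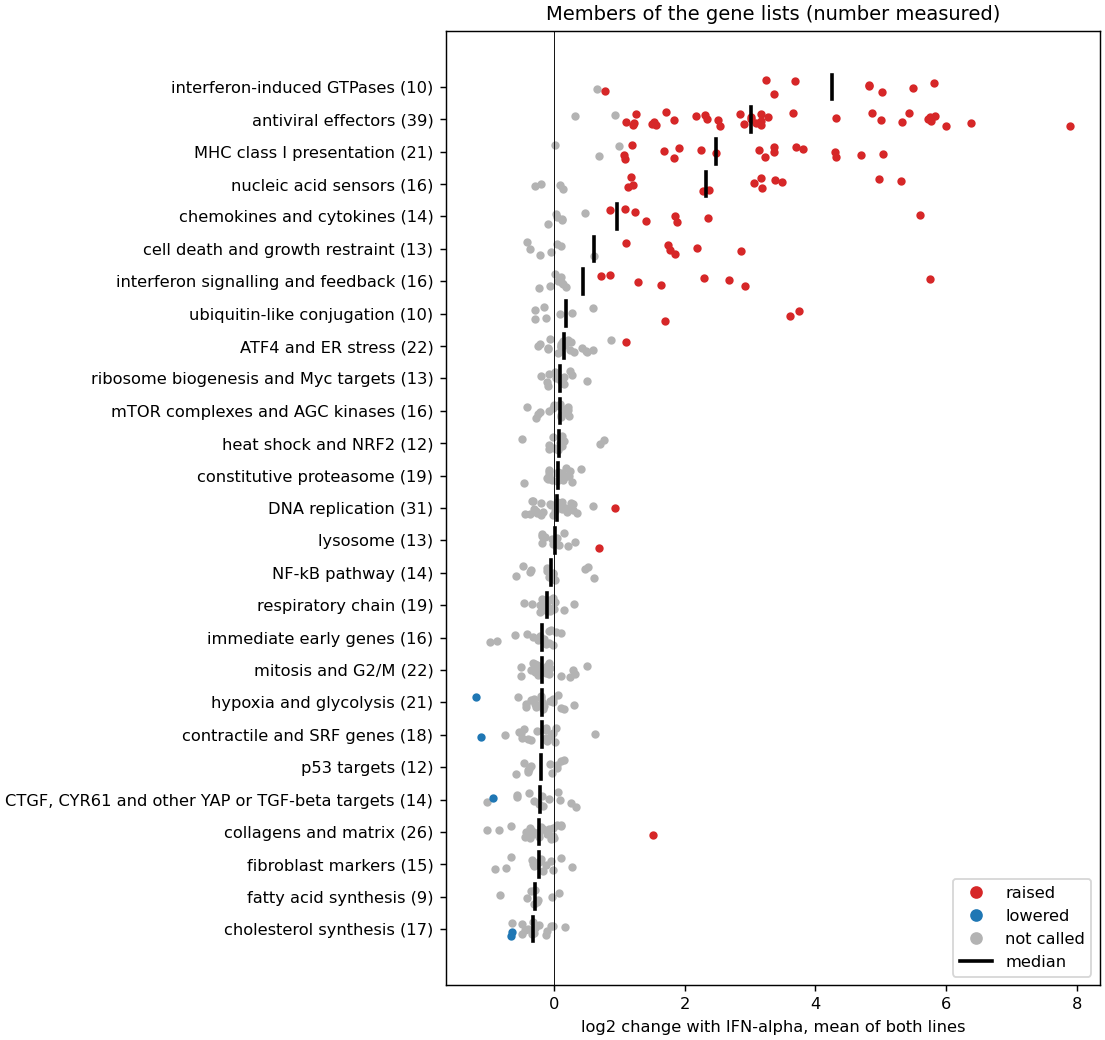
Log2 change with interferon-alpha averaged over both lines (x axis) for the members of each gene list with 8 or more members measured, one point per gene, with the number measured in brackets. Red points rose, blue points fell, grey points were not called and black bars are medians, which range from 4.25 for the GTPases to -0.32 for cholesterol synthesis.

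The 24 genes that rose over both lines but were called in neither line had log2 changes of 0.72 to 1.84 with a median of 1.01. Their median was 1.09 in the Rictor+/+ and 0.85 in the Rictor-/- line, and 12 of the 24 were under 2-fold. Adjusted p over both lines ran from 0.00455 to 0.0485 in limma. In 18 of the 24 the treated arrays lay above all untreated arrays in each line. That was so for 2.75% of all named genes, but these 24 were picked by the same arrays, so nothing is read from it.

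Tapbp, or tapasin, which joins class I molecules to the peptide transporter, was the largest of them. It was measured at 10.34, 10.07 and 9.37 in untreated and 12.15, 11.70 and 11.17 in treated Rictor+/+ cells, and at 10.09, 8.77 and 8.06 in untreated and 10.996, 10.53 and 11.17 in treated Rictor-/- cells. Treated arrays were higher in each line, but the untreated arrays were widely spread, above all in the Rictor-/- line. The rise was 1.84 ± 0.32 (3.57-fold, adjusted p = 0.00455 in limma), with adjusted p of 0.0698 and 0.0984 in the single lines. It was 1.32 in arrays 1 to 6 and 2.12 in arrays 7 to 12.

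Nampt, the rate-limiting enzyme of NAD salvage, rose from 10.23, 9.58 and 10.29 to 10.56, 11.17 and 11.59 in Rictor+/+ cells and from 9.51, 9.80 and 9.93 to 10.48, 10.94 and 11.60 in Rictor-/- cells. The groups did not overlap in either line, and the average was 1.17 ± 0.23 (adjusted p = 0.0145 in limma). Lpl, or lipoprotein lipase, rose by nearly the same amount in lines with very different levels. It went from 10.81, 10.98 and 10.78 to 11.79, 12.08 and 12.21 in Rictor+/+ cells and from 5.68, 6.64 and 6.59 to 7.13, 7.12 and 7.96 in Rictor-/- cells, close to background in the latter. The changes were 1.16 and 1.10, and the average was 1.13 ± 0.21 (adjusted p = 0.00784 in limma).

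Cgas and Gsdmd overlapped in a line each. Cgas, the sensor of cytosolic DNA, rose by 1.18 ± 0.25 (adjusted p = 0.0242 in limma). Its treated arrays overlapped the untreated ones in Rictor+/+ cells (11.27, 10.70 and 10.37 against 11.11, 11.69 and 12.31) and not in Rictor-/- cells (9.63, 10.37 and 10.29 against 11.32, 11.19 and 12.07). Gsdmd, the pore-forming gasdermin D, rose by 1.78 ± 0.38 (adjusted p = 0.025 in limma), with 0.68 in arrays 1 to 6 and 2.74 in arrays 7 to 12. It overlapped in Rictor-/- cells, where untreated arrays gave 8.85, 7.67 and 6.85 and treated arrays 8.71, 9.15 and 10.07. The RNA helicase Mov10, which restricts retroelements, rose by 1.55 ± 0.29, and the ubiquitin ligase Trim56 by 1.03 ± 0.22. The intramembrane protease Sppl2a rose by 1.36 ± 0.29.

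The other genes named by the rule were Mcm6, a subunit of the replicative helicase (0.94 ± 0.19), Unc5c, a netrin receptor (0.93 ± 0.17), the RNA helicase Ddx24 (0.93 ± 0.18) and Csrnp1 (1.06 ± 0.23). Mcm6 rose from 13.32, 12.66 and 13.12 to 13.62, 13.67 and 14.32 in Rictor+/+ cells and from 11.85, 12.15 and 12.32 to 13.03, 12.91 and 13.48 in Rictor-/- cells. It did not overlap in either line, and was the only one of 31 DNA replication genes measured that was called. The remaining 12 of the 24 were Parp9, Tuba8, Ap3m2, Cask, Gadd45g, Il15ra, Olfr503, Gm14137, Pcdh17, Trim69, Tcirg1 and Upp1. For 6 of these (Parp9, Tuba8, Il15ra, Olfr503, Gm14137 and Trim69) a group lay below background on all 3 arrays. With such groups at the background limit the rise was 1.30- to 1.70-fold. At least for Parp9 and Tuba8 this is not a strict bound, since only 1 of 3 untreated Rictor+/+ arrays was above background.

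**Figure D3:**
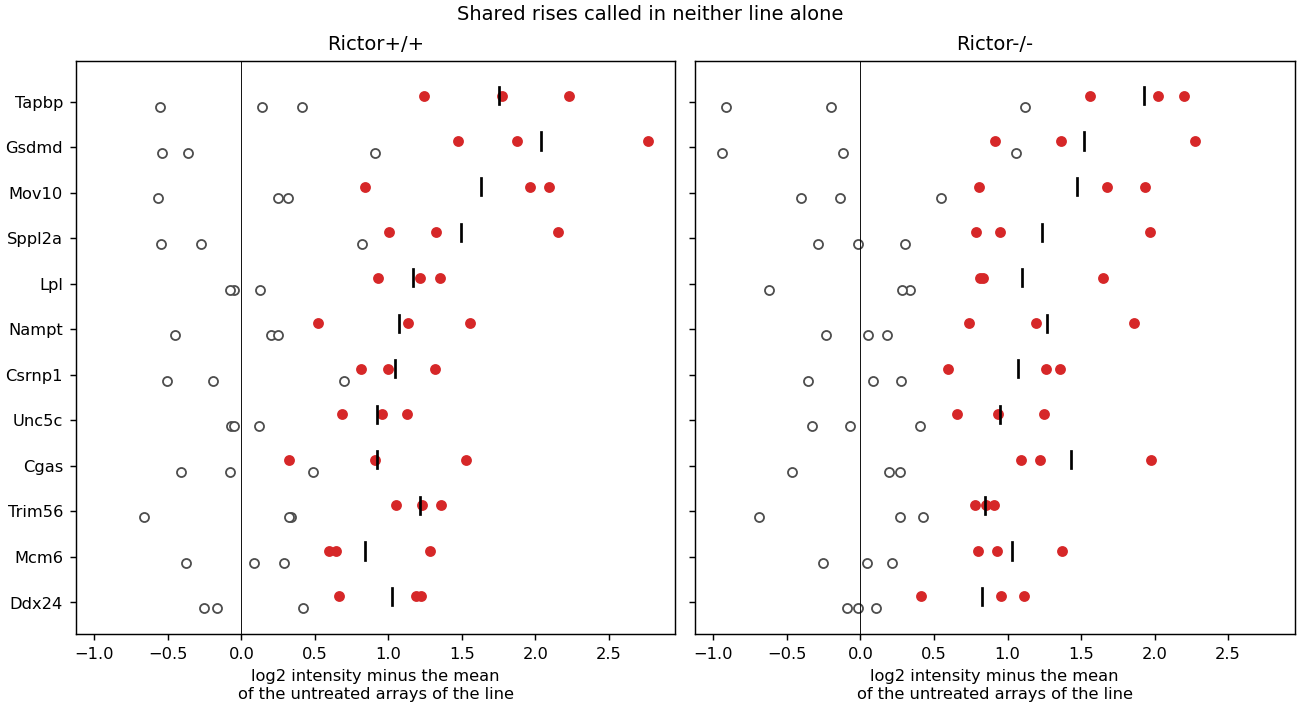
Log2 intensity of each array minus the mean of the untreated arrays of its line (x axis) for the 12 weak shared rises named by the rule, with untreated arrays as open circles, treated arrays as filled circles and the treated mean as a bar (3 arrays each). Treated arrays lie to the right of all untreated arrays in both lines for 10 of the 12, and overlap for Cgas in Rictor+/+ and Gsdmd in Rictor-/- cells.

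Which genes belong to these 24 depended on single arrays. The count was 14 without array 3 or array 11 and 11 without array 12, and it was 29 without array 9. Of the 24, 7 were called with each array left out in turn: Tapbp, Unc5c, Lpl, Mov10, Ddx24, Mcm6 and Nampt. With median scaling in place of quantile normalization, only Tapbp and Nampt of these kept an adjusted p under 0.05 in limma (0.00274 and 0.03). It was 0.0536 for Lpl, 0.107 for Mcm6, 0.131 for Mov10, 0.428 for Ddx24 and 0.505 for Unc5c. All 24 kept their sign throughout, which their choice by the same arrays makes a description only.

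The 53 decreases were smaller and closer to the noise. Mrps21, a protein of the small mitochondrial ribosomal subunit, had the lowest adjusted p. It was measured at 11.35, 11.51 and 11.34 in untreated and 10.37, 10.35 and 10.30 in treated Rictor+/+ cells, and at 12.23, 12.42 and 12.36 in untreated and 11.78, 11.75 and 11.65 in treated Rictor-/- cells. Arrays of a group lay close together and the groups did not overlap. The average was -0.84 ± 0.12 (1.78-fold lower, adjusted p = 9.3e-04 in limma), with -0.76 in arrays 1 to 6 and -0.87 in arrays 7 to 12. Mrpl34, of the large mitochondrial subunit, fell by 0.93 on the log2 scale (SE 0.14).

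Tagln, or transgelin, an actin-binding protein of contractile cells, fell from 9.02, 8.91 and 9.32 to 7.45, 7.87 and 7.37 in Rictor+/+ cells and from 9.94, 9.40 and 10.08 to 9.12, 9.16 and 8.97 in Rictor-/- cells. The groups were apart in both lines, with changes of -1.52 and -0.72. The average of -1.12 ± 0.16 was 2.18-fold lower (adjusted p = 0.00107 in limma). Id3, an inhibitor of basic helix-loop-helix factors, fell from 9.65, 9.41 and 9.45 to 8.42, 8.38 and 8.18 in Rictor+/+ cells and from 8.56, 7.88 and 8.31 to 7.38, 7.82 and 7.53 in Rictor-/- cells. Its groups did not overlap, although in the Rictor-/- line 1 untreated array, at 7.88, was close to 1 treated array, at 7.82. The average was -0.93 ± 0.15 (adjusted p = 0.00337 in limma).

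Crmp1, a collapsin response mediator of the cytoskeleton, had the largest average decrease, -1.66 ± 0.35 (3.16-fold lower, adjusted p = 0.0208 in limma), and a wide spread. It was measured at 9.78, 10.47 and 10.60 in untreated and 8.74, 8.74 and 8.22 in treated Rictor+/+ cells, and at 8.63, 7.27 and 8.18 in untreated and 7.29, 6.84 and 5.13 in treated Rictor-/- cells. The Rictor-/- groups overlapped, and array 12 gave the lowest value of all. Uba6, an E1 enzyme for ubiquitin and FAT10, fell by 1.27 on the log2 scale (SE 0.28), and its Rictor+/+ arrays overlapped (10.25, 11.54 and 11.61 against 9.79, 10.26 and 8.76). The cell adhesion molecule Jam3 fell by 1.23 (SE 0.26). Prkag2, a regulatory subunit of AMP-activated kinase, fell by 0.996 (SE 0.20).

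Of the 21 decreases called in neither line, Nedd4, a HECT ubiquitin ligase, had the lowest adjusted p, 0.00772 in limma. It went from 9.95, 10.10 and 10.59 to 9.65, 9.37 and 9.22 in Rictor+/+ cells and from 10.82, 10.72 and 10.80 to 9.85, 10.09 and 9.89 in Rictor-/- cells, with no overlap and changes of -0.80 and -0.84. Crmp1 and Uba6, also called in neither line, each overlapped in a line. The others named by the rule, whose arrays did not overlap in either line, were the small GTPase Rhou (-0.89 ± 0.21), the vesicle protein Vat1 (-0.87 ± 0.19), the cochaperone Sgtb (-0.86 ± 0.17), the phosphatase 2A regulatory subunit Ppp2r5b (-0.83 ± 0.18), the GTPase-activating protein Arhgap18 (-0.76 ± 0.18), the oligosaccharyltransferase subunit Ost4 (-0.72 ± 0.15) and Tmem50b (-0.70 ± 0.16). Rhou, Arhgap18 and Tmem50b lost their call in 15, 15 and 16 of 26 alternatives. The synaptic vesicle protein Syngr1 (-0.82 ± 0.18) was likewise called in neither line. Over the 21, the median was -0.82 in the Rictor+/+ and -0.84 in the Rictor-/- line, and 17 of the 21 were under 2-fold. In 17 of the 21 the arrays did not overlap in either line, beside 1.85% of all named genes, a share that the choice of these genes by the same arrays makes a description only.

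**Figure D4:**
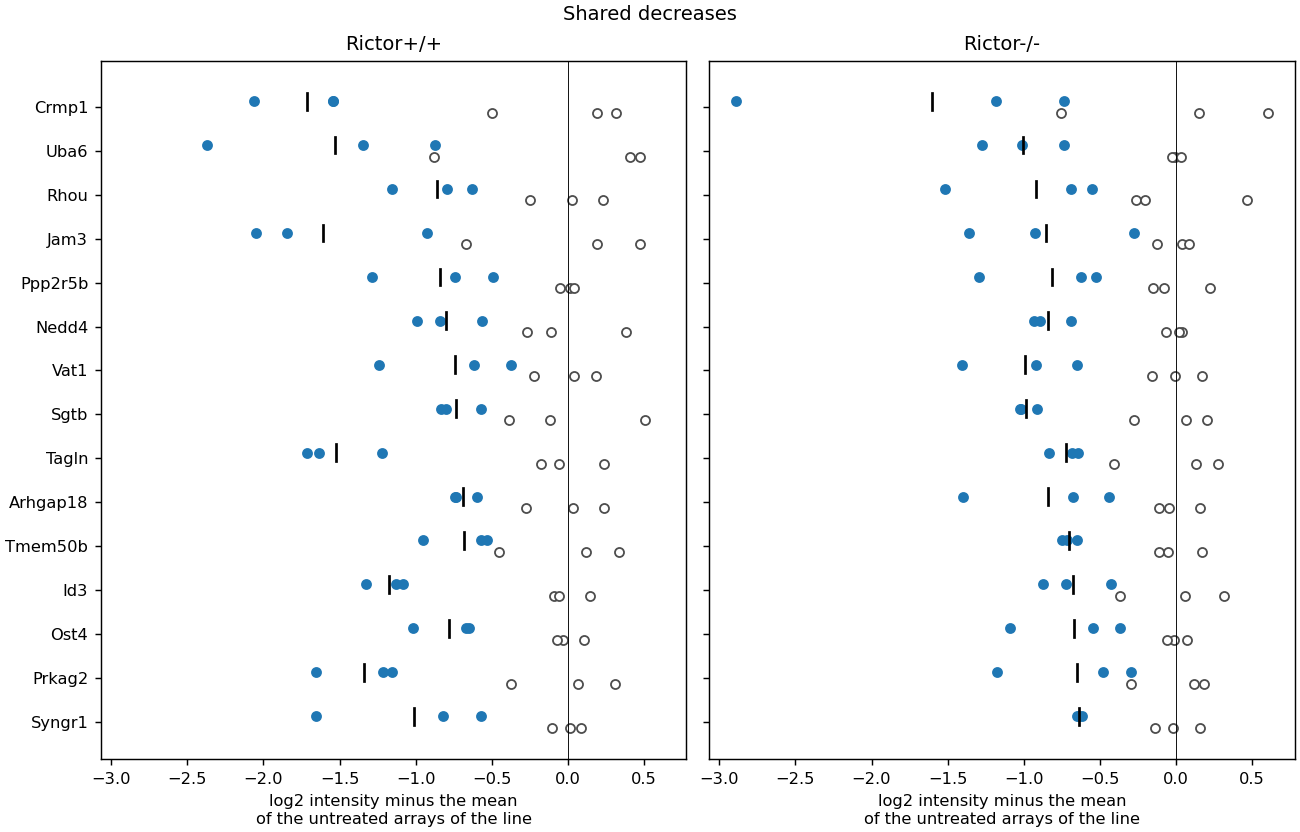
Log2 intensity of each array minus the mean of the untreated arrays of its line (x axis) for the 15 shared decreases named by the rule, with untreated arrays as open circles, treated arrays as filled circles and the treated mean as a bar (3 arrays each). Treated arrays overlap untreated ones for Uba6 in Rictor+/+ cells and for Crmp1 and Prkag2 in Rictor-/- cells.

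The remaining decreases lay outside the ranks of the rule. Dad1, another oligosaccharyltransferase subunit, fell by 0.73 on the log2 scale (SE 0.15), and Trappc1, a vesicle tethering subunit, by 0.78 (SE 0.13). Csgalnact1, which starts chondroitin sulfate chains, fell by 1.003 (SE 0.16). Egln3, a prolyl hydroxylase of hypoxia-inducible factor, fell by 1.20 (SE 0.21). Mt1, a metallothionein, fell by 0.70 (SE 0.13), and Tfb2m, a mitochondrial transcription factor, by 0.73 (SE 0.14). The other lowered genes were Ccdc167, Lockd, Smim11, Lsm6, Fggy, Sox11, Tspan2, Fam199x, Pcyox1l, Dtymk, Lpin1, Pmm1, Pros1, Sirpa, Rps6ka5, S100a13, Satb1, Slc9a3r2, Tpmt, Tm7sf2 and Nsdhl, and 9 more with a group below background on all 3 arrays (2600006K01Rik, Nipal1, Cables1, Ctsf, Gabarapl2, Kcnmb4, Man1a, Tenm3 and Ptprz1). For those 9 the size is a bound, and 2600006K01Rik, Nipal1, Cables1 and Man1a were 1.08- to 1.49-fold lower with such groups at the background limit. For Cables1 this is not a strict bound, since 1 of 3 treated Rictor-/- arrays was above background. No averaged fold is given for the other 5.

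How many genes fell changed with the arrays used and with the scaling. The count of 53 became 29 without array 2, 31 without array 3, 33 without array 4, 25 without array 5, 26 without array 6, 20 without array 7, 31 without array 9, 29 without array 10 and 30 without array 11. The count of 21 called in neither line became 5, 11, 9, 4, 12, 10 and 9 without array 3, 5, 6, 7, 9, 10 and 12. Median scaling in place of quantile normalization moved the median of all named genes to -0.15 and left 8 decreases beside 205 rises, so that rises made up 96.2% of calls in place of 83.7%. Under every setting tried, all of the 53 that could be tested (47 with the filter at 6 arrays, 53 otherwise) stayed below both 0 and the median of all named genes. Since the 53 were picked by the same arrays, this is a description only. With each array left out in turn, 15 of the 53 were called each time, Mrps21, Tagln, Mrpl34, Csgalnact1, Trappc1, Id3, Egln3 and Nedd4 among them. With median scaling limma's adjusted p was 0.0822 for Mrps21, 0.113 for Trappc1 and 0.161 for Nedd4. It stayed under 0.05 for Tagln, Mrpl34, Csgalnact1, Id3 and Egln3.

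Lists on lipids, growth and the cell's structure held few calls. Cholesterol synthesis had 2 decreases among 17 genes measured, the sterol reductase Tm7sf2 (-0.66 ± 0.15) and the sterol dehydrogenase Nsdhl (-0.64 ± 0.14), and no rise. With each array left out in turn Tm7sf2 was called in 4 and Nsdhl in 2 of 12 fits, and with median scaling limma's adjusted p was 0.241 and 0.319. Of its 17 genes 16 were below 0 on average and 12 below 0 in both lines (70.6%), beside 35% of all named genes. At an unadjusted p under 0.05, 8 of the 17 were lower and 0 higher, beside 7.83% lower over all named genes. Its median was -0.32 (-0.44 in Rictor+/+ and -0.24 in Rictor-/- cells, -0.38 in arrays 1 to 6 and -0.41 in arrays 7 to 12). In untreated cells Nsdhl was measured at 11.52, 12.10 and 11.78 in the Rictor+/+ and 12.34, 12.42 and 12.11 in the Rictor-/- line, and in treated cells at 10.90, 11.21 and 11.22 and at 11.65, 11.75 and 11.71, with no overlap. Of 9 fatty acid synthesis genes 0 were called in limma (2 lower at an unadjusted p under 0.05), and 7 were below 0 in both lines.

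Among 18 contractile genes Tagln alone was called, as lower, and 13 were below 0 in both lines (72.2%), beside 35% of all named genes. At an unadjusted p under 0.05 in limma, 5 of the 18 were lower and 0 higher, beside 7.83% lower over all named genes. Among 26 collagens and matrix genes none fell and the collagenase Mmp13 rose by 1.51 ± 0.34. That rise was called in the Rictor+/+ line, at 2.39, and was 0.64 in the Rictor-/- line, where the arrays overlapped. Of 14 targets of YAP or TGF-beta Id3 alone fell, of 21 hypoxia and glycolysis genes Egln3 alone fell, of 22 ATF4 and ER stress genes Ddit3, or CHOP, alone rose (1.10 ± 0.21), and of 13 lysosomal genes Npc2, a cholesterol carrier, alone rose (0.69 ± 0.14). Both of these rises were called in the Rictor+/+ line and not in the Rictor-/- line.

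In some lists the lines' medians had opposite signs and the average lay between. DNA replication genes had a median of -0.29 in the Rictor+/+ line and 0.41 in the Rictor-/- line, which gave 0.04 on average (-0.09 with median scaling), and 22 mitosis genes had -0.56 and 0.28, which gave -0.18 (-0.09 with cyclic loess). No mitosis gene was called over both lines in limma (2 lower at an unadjusted p under 0.05). Of the lists on respiratory chain, ribosome biogenesis, heat shock and NRF2, p53 targets, NF-kB, immediate early genes and mTOR complexes no member was called either. At an unadjusted p under 0.05 in limma, 4 of 12 p53 targets were lower and 0 higher. In each other list of these 0 or 1 members were lower, beside 7.83% of all named genes. The difference between lines was not tested for lists.

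The sign of a change was also compared between arrays that share no library. Of 155 genes lower in the Rictor+/+ line at an unadjusted p under 0.01, 123 were also below 0 in the Rictor-/- line (79.4%, against 54.0% of all named genes), with a median there of -0.27. Of 65 lower in the Rictor-/- line, 54 were below 0 in the Rictor+/+ line (83.1% against 56.8%, median -0.37). For genes higher in the Rictor+/+ line the share was 330 of 410 (80.5% against 46.0%), and for genes higher in the Rictor-/- line 156 of 164 (95.1% against 43.2%). Between sets, 81 of 105 genes lower in arrays 1 to 6 were below 0 in arrays 7 to 12 (77.1% against 52.0%), and 82 of 131 in the other direction (62.6% against 55.5%). The medians in the other set were -0.36 and -0.18. For genes higher in a set the shares were 257 of 271 and 252 of 277. The arrays were normalized together and the lines are 1 pair, so these shares are a description and carry no p.

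The letters shown above were counted over the 300 bases from 250 before to 50 after each start site, on both strands, in genes with a RefSeq promoter. The ISRE-type letters were present in 4.06% of the 6719 tested genes with a promoter, and in 3.99% of all 27025 genes of the table (3.44% of its promoters). Among raised genes they were present in 62 of 208 (29.8%). The share was 27 of 52 (51.9%) for rises of at least 8-fold, 31 of 119 (26.1%) for 2- to 8-fold and 4 of 37 (10.8%) for rises under 2-fold. Of the 19 weak rises called in neither line that had a promoter, 2 held them, Tcirg1 among them. Of the 45 lowered genes with a promoter 1 held them (2.22%). The GAS-type letters TTCNNNGAA, which read the same on both strands, were present in 8.2% of tested genes, 14.4% of raised and 13.3% of lowered genes (6 of 45). A match is a run of letters and not a shown binding site, and its absence here covers only these letters and this window.

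**Figure D5:**
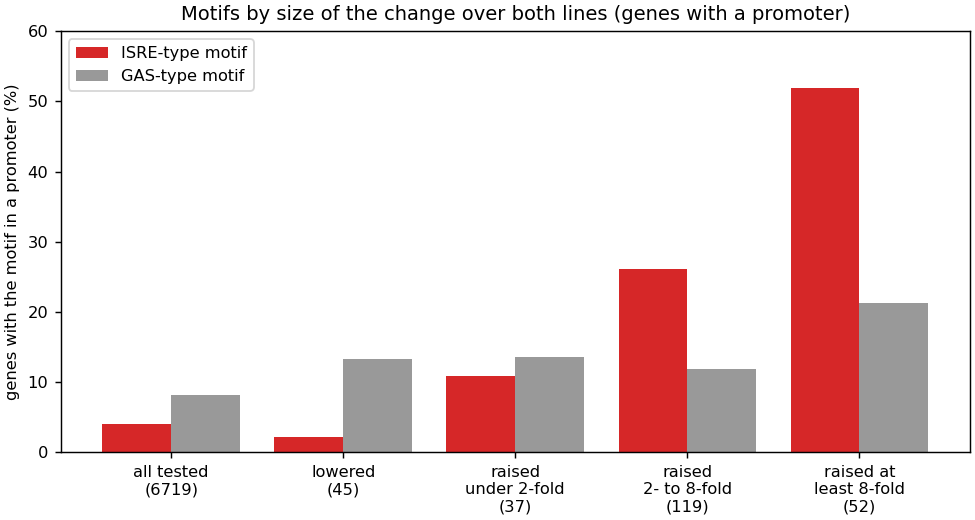
Percent of genes with a RefSeq promoter that held the ISRE-type letters (red) or the GAS-type letters (grey) between 250 bases before and 50 after a start site, by size of the average change, with the number of genes in brackets. The red bars run from 4.06% of all tested genes and 2.22% of lowered genes to 51.9% of genes raised at least 8-fold.

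The average hides genes whose lines responded unequally. Among well measured genes with a called difference, the largest was Ifi213, a DNA-binding protein of the Ifi200 family. It was measured at 8.02, 7.74 and 7.82 in untreated and 12.24, 11.46 and 12.36 in treated Rictor+/+ cells, and at 8.27, 8.23 and 8.07 in untreated and 8.04, 8.64 and 8.45 in treated Rictor-/- cells. The Rictor+/+ groups were far apart and the Rictor-/- groups overlapped, so that the average of 2.17 ± 0.18 describes neither line. Ifitm3, which blocks viral entry, went the other way, with 1.46 in Rictor+/+ and 5.09 in Rictor-/- cells (adjusted p of the difference = 0.00561 in limma). Its untreated level was 14.03, 14.16 and 14.39 in the Rictor+/+ and 10.79, 9.41 and 9.18 in the Rictor-/- line, and its treated levels were 15.81, 15.80 and 15.34 and 15.18, 15.15 and 14.33.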

How the data were processed

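RNA of 12 MEF arrays (4 groups of 3) was measured. The submitters' processing notes name BeadStudio, with no version. The deposited non-normalized intensity of 45281 probes was used, and the authors' deposited normalized log2 values served as an alternative; how the authors normalized the latter is not given in the sources used here. In R 4.3.3 each array's background was set at the mode of its log2 signals, corrected by normexp (offset 16), quantile-normalized and put on a log2 scale. Probes above background (upper-tail p under 0.01) on at least 3 arrays were kept (20865), and the brightest stood for a gene. The probe table gave 14461 probes 1 symbol and 5 several, so that 8277 named genes and 8991 unnamed features were tested. Group means were fitted with limma 3.58.1 (8 residual and 4.70 prior degrees of freedom), and calls were made at an adjusted p under 0.05. The script was tested on simulated data. Depth has no counterpart on arrays: the number of arrays and the signal over background limit precision.

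The members and gene lists were chosen with earlier results of these data known, and no set test was run. Named genes were drawn from called genes above background on at least 2 of 3 arrays in every group, of 1 sign in both lines and without a called difference, ranked by the smaller of the lines' changes: the first 10 raised, 15 lowered, 12 raised and 10 lowered called in neither line. Up to 4 raised and 4 lowered members per list, the pathway genes and the 6 largest called differences were added. Other lowered genes and weak rises, and members of lists that were not called, are named for completeness, after their values were seen. Alternatives covered background, normalization, filter, probe choice, array weights, model, blocks, the deposited values and each array left out. No array pair held identical values (0 pairs).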

Additional observations from a re-analysis of the deposited data

Results flagged for a closer look

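The response differed between the lines by limma's test of the difference itself for the 12 genes listed here, so that their averages stand for unequal responses. Further antiviral effectors with a called difference, such as Mx1, Oas2, Sp100 and Trim25, are given above. The adjusted p of the difference was 0.00013 for Slfn2 and for Ifi213, 0.000298 for Cxcl11, 0.000332 for Phf11d, 0.00161 for Psmb9, 0.00204 for Ifi205, 0.00233 for H2-Q5, 0.00388 for Ly6c1, 0.00561 for Ifitm3, 0.0108 for Ifit2, 0.00247 for Ifi27 and 0.0466 for H2-D1. Among these 12, the Rictor-/- line rose more in Ifitm3 and Ifi27, and the Rictor+/+ line in the others. Slfn2, a growth regulator of lymphocytes, and the chemokine Cxcl11 rose at least 7.40- and 6.42-fold in Rictor+/+ cells and were below background on all 6 Rictor-/- arrays. Both passed the filter on dim probes only through the treated Rictor+/+ arrays, so that their difference is a description and supports nothing. The surface antigen Ly6c1 changed by 3.59 and 0.29 in the Rictor+/+ and Rictor-/- lines, the RNA-binding Ifit2 by 3.85 and 0.79, the class I gene H2-Q5 by 5.40 and 2.21 and Phf11d by 7.002 and 3.23 on the log2 scale. Psmb9 changed by 6.30 and 3.10. Ifi205 changed by 6.69 and was at least 7.47-fold higher, from below background, in Rictor-/- cells. Single arrays far from the others were not looked for, since each group has 3 arrays.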

How the results depend on the processing

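The labels name no pairs of arrays and array numbers are not shared between groups, so that the main fit was unpaired. The numbers run through the 4 groups in the same order in arrays 1 to 4, 5 to 8 and 9 to 12. The labels name no fours of arrays as sets, but with arrays 1 to 4, 5 to 8 and 9 to 12 as a block 271 genes rose and 55 fell, and 263 of the 273 rises and 44 of the 53 decreases were still called. Of 2077 alternative values for 80 genes 1799 kept their sign and their side of the threshold. The 76 called genes kept their sign in each, but they were picked by the same arrays, so nothing is read from it. Ifnar2, Jak1 and Rictor, not called, changed sign in 12, 4 and 2 values. Ifnar2 was -0.00745 without background correction, -0.090 with median scaling, -0.010 with array weights, -0.303 within arrays 7 to 12, -0.00836 with the deposited values and -0.061 to 0.130 with each array left out. Jak1 was -0.081 with median scaling, -0.539 within arrays 7 to 12 and -0.135 to 0.268 with each array left out. Rictor was 0.232 within arrays 1 to 6 and -0.453 to 0.028 with each array left out. Of 780 alternative values for gene lists 754 moved by less than the spread between arrays. The count of 273 rises was 205 to 292 under the other backgrounds, scalings, filters, probes, models and blocks, while array weights gave 418. Weights also gave 258 decreases and 65 called in neither line (61.8% of calls raised). Without background correction 82 genes fell, 34 of them called in neither line. With median scaling 8 fell, and 10 raised and 6 lowered genes were called in neither line. The deposited values gave 14 raised in neither line. Within arrays 1 to 6, 144 rose and 3 fell by limma, and 4 and 2 were called in neither line. Within arrays 7 to 12, 121 rose, 1 fell and 29 rises and 0 decreases were called in neither line. At an unadjusted p under 0.05 limma gave 391 and 793 decreases in the sets. In each set 2 of the 4 groups hold 1 array each, assumed to vary like the others, and fewer arrays raise the error. Rises made up 98% and 99.2% of calls there. With each array left out, 236 to 276 genes rose, 20 to 52 fell, 11 to 29 rises and 4 to 29 decreases were called in neither line. For these moves the cause was not tested, apart from the smaller number of arrays. The additive model gives no count for single lines. Of the 273 rises 92 rest on a group below background, which limits their size to a bound, not always a strict one. In 50 of the 273 the untreated groups of both lines were below background. These passed the filter on dim probes only through treated arrays, so that their p is a description only.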

Other observations

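Of the 8991 unnamed features tested, 61 rose and 15 fell over both lines at an adjusted p under 0.05 in limma. They have no gene symbol in the table used here and are not described further.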
